A study of Homo sapiens with 12 samples.

Results

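The genes described here are 8 human metallothioneins, MT1A, MT1E, MT1F, MT1G, MT1H, MT1M, MT1X and MT2A, each taken as the row of that symbol in the deposited count table, which names 53712 genes. They were selected on the level of MT1H and MT1G in CPM (read counts scaled to a common library size), which differed strongly between libraries numbered 3 and 4 and libraries numbered 1 and 2, so that difference is described below without a test. All 8 passed the filter on low counts, as did 17228 genes in all.

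RNA was measured in H9 cells, an established line of human embryonic stem cells grown in RSeT, a commercial medium for naive-state culture. Of the 3 oligo groups, ASO-Ctr received control antisense oligos without a specific target, ASO-L1 received antisense oligos to LINE1 (L1), a family of mobile elements, and SO-L1 received L1 oligos in the sense orientation, each at 25 nM by lipid transfection. All 3 groups, controls included, were then held in medium with 10 nM DZNep, an inhibitor that lowers histone methylation, and 5 nM TSA, a histone deacetylase inhibitor. In all groups trans-ISRIB, emricasan and the ROCK inhibitor Y-27632 were withdrawn at 24 h, and unsorted cells were harvested at 48 h. Each group has 4 libraries, numbered 1 to 4. The labels do not say what libraries of one number share, nor that they came from separate cultures, so p-values measure the spread between these libraries, which may be technical. Everything comes from 1 cell line and 1 drug background, and no group lacks DZNep and TSA.

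Metallothioneins are small cysteine-rich proteins that bind zinc and copper, buffer free zinc and take up toxic metals such as cadmium. Free zinc in the cell is sensed by MTF1, a zinc finger factor that binds metal response elements in metallothionein promoters and in the promoter of the zinc exporter SLC30A1, and their RNA then rises. Glucocorticoids and oxidative stress are further known inducers, and the human MT1 and MT2 genes lie side by side in a cluster on the long arm of chromosome 16.

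The promoters of MT1H, MT2A and MT1X are shown because metallothionein promoters hold the elements that the zinc sensor binds, and these 3 are the members with an entry in the promoter table used. Each sequence is the 250 bases before the start, from RefSeq on build GRCh38.p14, plus strand, and the capitals mark matches to the metal response cores TGCACNC and TGCGCNC on either strand.
MT1H, chr16:56669564-56669813: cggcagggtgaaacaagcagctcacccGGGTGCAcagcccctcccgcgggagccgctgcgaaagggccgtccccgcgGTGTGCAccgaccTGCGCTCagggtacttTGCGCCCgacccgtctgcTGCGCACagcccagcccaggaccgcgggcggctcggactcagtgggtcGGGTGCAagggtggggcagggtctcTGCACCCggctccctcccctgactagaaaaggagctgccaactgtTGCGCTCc
MT2A, chr16:56608334-56608583: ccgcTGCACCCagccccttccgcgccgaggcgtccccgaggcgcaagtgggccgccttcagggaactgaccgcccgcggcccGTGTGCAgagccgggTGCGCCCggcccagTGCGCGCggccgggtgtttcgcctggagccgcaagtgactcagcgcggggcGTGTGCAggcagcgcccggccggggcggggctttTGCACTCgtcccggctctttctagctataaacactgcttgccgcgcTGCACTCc
MT1X, chr16:56682220-56682469: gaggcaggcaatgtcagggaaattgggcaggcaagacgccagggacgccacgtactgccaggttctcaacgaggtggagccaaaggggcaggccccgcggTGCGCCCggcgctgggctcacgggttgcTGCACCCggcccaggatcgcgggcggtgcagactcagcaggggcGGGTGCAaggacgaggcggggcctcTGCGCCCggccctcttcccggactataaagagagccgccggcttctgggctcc
MT1H held 8 core matches, MT2A held 7 and MT1X held 4. Among 35116 RefSeq promoters of the same length, 24.8% held at least 1 match, 0.370% held 4 or more and 0.120% held 5 or more. The antioxidant response core TGACNNNGC matched 1 time in MT2A, 1 time in MT1X and in no place in MT1H, against 10.9% of all promoters with a match. Of the zinc transporters described below, SLC30A2 had 3 metal core matches and SLC30A1 had 1. A match is only a run of letters, binding was not measured, and with 3 members no relation of matches to RNA levels was examined.

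In 7 of the 8 genes every library numbered 3 or 4 held more RNA than any library numbered 1 or 2, and MT1A was the exception. The summed CPM of the 8 genes lay between 236 and 259 in the 6 libraries with numbers 1 and 2 and between 467 and 521 in the 6 with numbers 3 and 4. Over all genes tested, 9.17% were higher in numbers 3 and 4 with no overlap between the 6 and 6 libraries, and 9.27% were lower in the same way. By an edgeR fit with a term for the set, 28.4% of all genes were higher and 26.9% lower at an adjusted p under 0.05, 55.2% together. The ratio of the sets was 2-fold or more for 5 of the 8 members and for 307 genes in all (1.78%). The median log2 ratio was 1.07 over the members and 0.0074 over all genes tested. These counts describe the contrast that chose the genes and are not evidence for it. In bulk RNA, fewer cells that express a gene and less RNA per cell cannot be told apart.

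**Figure D1:**
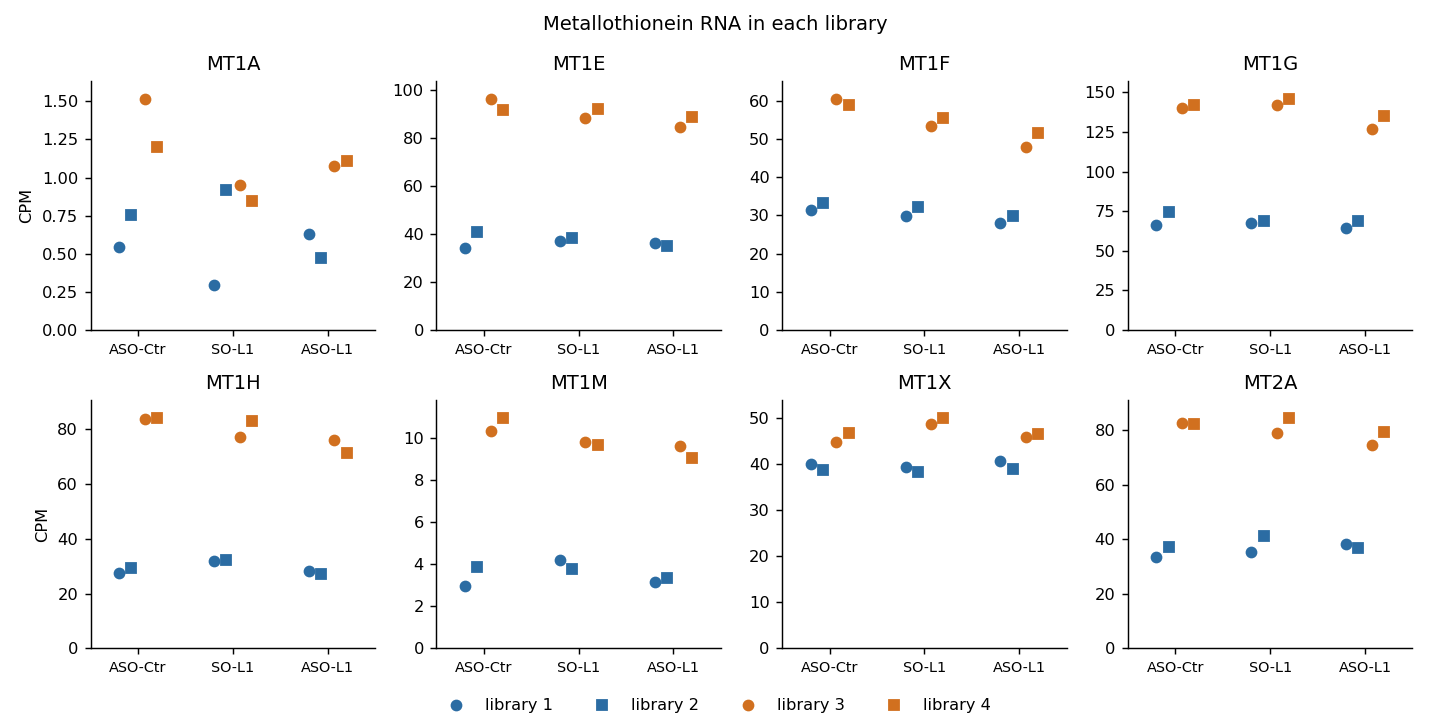
CPM of each metallothionein gene (vertical axes, linear, starting at 0) in the 12 libraries, by oligo group, with 1 point per library and colour for the library number. In all panels but that of MT1A the orange points (libraries 3 and 4) lie above every blue point (libraries 1 and 2), and the step is smallest in MT1X.

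MT1H, one of the MT1 isoforms, showed one of the widest steps. With ASO-Ctr its CPM was 27.3, 29.3, 83.5 and 84.0 in libraries 1 to 4, with SO-L1 it was 32.0, 32.1, 77.1 and 83.0, and with ASO-L1 it was 28.2, 27.3, 76.2 and 71.4. Libraries 3 and 4 were high in every oligo group, and the lowest of them stood far above the highest of libraries 1 and 2. The log2 ratio of the sets was 1.57 with ASO-Ctr, 1.32 with SO-L1 and 1.41 with ASO-L1, and 97 of the genes tested had a larger mean ratio.

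MT1G was the most abundant member. Its CPM was 66.2, 74.5, 139.9 and 142.2 with ASO-Ctr, 67.5, 69.0, 141.9 and 145.5 with SO-L1, and 64.5, 68.5, 127.1 and 135.3 with ASO-L1. The sets again did not overlap, and the mean log2 ratio over the 3 oligo groups was 1.02. MT2A, the main isoform in most human tissues, had a CPM from 33.6 to 41.3 (median 37.1) in numbers 1 and 2 and from 74.6 to 84.5 (median 80.8) in numbers 3 and 4, a log2 ratio of 1.11.

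MT1E ranged from 33.97 to 40.8 CPM (median 36.6) in numbers 1 and 2 and from 84.5 to 96.1 (median 90.3) in numbers 3 and 4. MT1F ranged from 27.9 to 33.2 CPM (median 30.6) and from 48.0 to 60.3 (median 54.5) in the same sets. MT1M, a low isoform here, ranged from 2.95 to 4.20 CPM and from 9.04 to 10.9 CPM. Their log2 ratios were 1.29, 0.83 and 1.48, so the scarce MT1M had the widest step of the 8, and the sets overlapped for none of the 3.

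MT1X and MT1A stood apart, MT1X by a smaller step and MT1A by sets that overlapped at low counts. MT1X, an isoform found in many tissues, had 40.1, 38.8, 44.8 and 46.9 CPM with ASO-Ctr, 39.3, 38.4, 48.8 and 50.1 with SO-L1, and 40.8, 39.0, 46.0 and 46.7 with ASO-L1. The sets did not overlap, but its log2 ratio was 0.26, and 18.5% of all genes tested had a ratio at least as high. MT1A had only 264 counts over the 12 libraries and from 0.297 to 1.51 CPM, and its sets overlapped. SO-L1 library 2, at 0.916 CPM, lay above SO-L1 library 4, at 0.848 CPM, on 21 against 20 counts. The mean log2 CPM of MT1A was still 0.86 higher in numbers 3 and 4.

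Because the members did not move by equal factors, the makeup of the metallothionein RNA differed between the sets. The share of MT1X in the summed CPM was 16.04% ± 0.90 (SD, n = 6) in numbers 1 and 2 and 9.43% ± 0.49 in numbers 3 and 4. The share of MT1H was 11.9% ± 0.70 and 15.8% ± 0.59, that of MT1E 14.99% ± 0.48 and 18.0% ± 0.38, and that of MT1F 12.5% ± 0.57 and 10.9% ± 0.51. MT1G held 27.8% ± 0.80 and 27.7% ± 0.54. The shares of MT1X, MT1H, MT1E, MT1M and MT1F in 1 set did not overlap those in the other, while those of MT1G, MT2A and MT1A did. For MT1F the gap was narrow, from a lowest 11.64% in numbers 1 and 2 to a highest 11.62% in numbers 3 and 4.

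**Figure D2:**
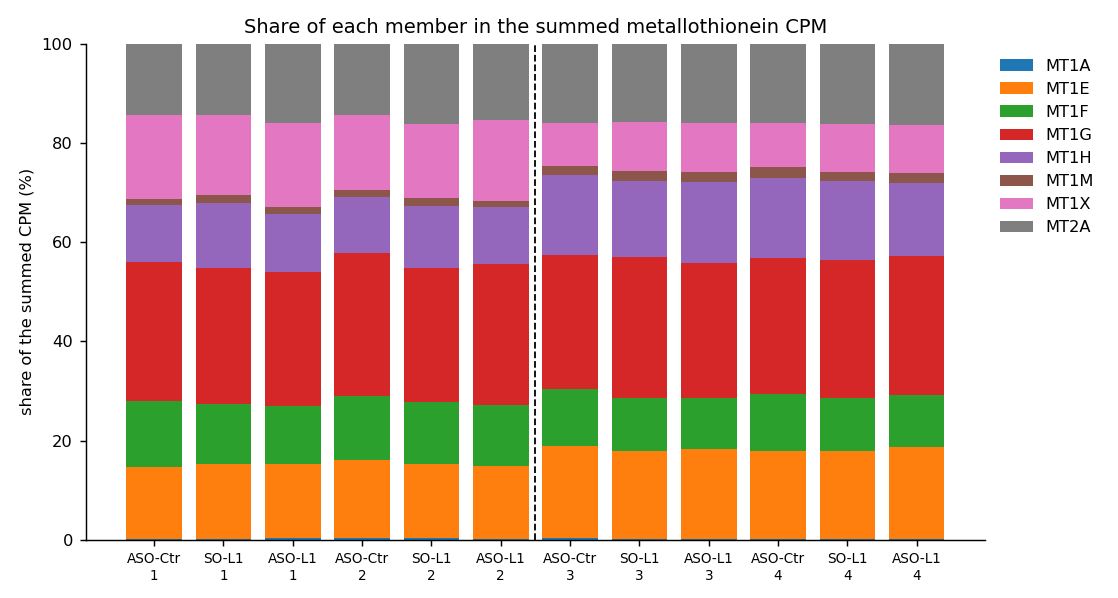
Share of each gene in the summed CPM of the 8 metallothioneins (vertical axis, percent) in the 12 libraries, 1 bar each, with libraries 1 and 2 left of the dashed line and libraries 3 and 4 right of it. The MT1X band narrows from 16.04% to 9.43% and the MT1H band widens from 11.9% to 15.8%, with little change between oligo groups.

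Divided by transcript length in kilobases, which allows levels to be compared between genes, MT1G led in both sets with 168 ± 8.5 and 342 ± 16 CPM per kb (SD, n = 6). MT1X ranked next in numbers 1 and 2 with 87.5 ± 2.0 CPM per kb, ahead of MT1H with 74.0 ± 5.6. In numbers 3 and 4 their order was turned, with MT1H at 199.5 ± 12.9, MT1E at 123.8 ± 5.5, MT1X at 104.9 ± 4.3 and MT2A at 102.2 ± 4.4. Neighbours in that order whose ranges overlapped were MT1X and MT2A in numbers 3 and 4, and MT1E, MT2A and MT1F in numbers 1 and 2. MT1M, at 4.28 and 11.9 CPM per kb, and MT1A, at 1.52 and 2.82, came last. The length is that of the longest GENCODE v29 transcript with a RefSeq match, and which transcript these cells use was not measured.

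Metallothionein transcripts resemble one another, and how reads that match several genes were counted is not given in the sources used here. Of all 50-base windows of these transcripts, the share with an exact copy in another gene was 45.1% for MT1X, 20.4% for MT1H, 20.2% for MT1G, 10.6% for MT1E and between 3.59% and 7.05% for the other 4 members. With 100-base windows the share was 19.1% for MT1X and 3.36% for MT1H and was 0 for the other 6. The MT1X windows of that length were shared with AC026461.1, a gene whose own row held 0 counts, and the MT1H windows with MT1HL1, which also held 0. With up to 2 mismatches allowed against other metallothionein transcripts, the share of 50-base windows was 47.4% for MT1H, 39.5% for MT1G, 38.7% for MT1E and 36.3% for MT1A, and between 10.6% and 24.9% for the other 4. No member was free of such similarity, and the part of shared reads in the set ratios was not tested.

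The rest of the family had few reads. Of 13 further rows with a metallothionein symbol, 3 passed the filter and 4 (MT1B, MT4, MT1HL1 and MT1P3) held no count in any library. MT3, the brain form, totalled 89 counts, and the pseudogenes MT1XP1, MT1DP, MT2P1, MT1P1 and MT1CP totalled 50, 44, 21, 19 and 14. MT1L, another of these rows, was between 0.906 and 1.38 CPM in numbers 1 and 2 and between 1.44 and 2.05 in numbers 3 and 4. The pseudogene MT1JP was between 0.283 and 0.698 and between 1.16 and 2.43 CPM in the same sets. MTL5, which encodes the testis protein tesmin and is not a true metallothionein, overlapped between the sets at 27.4 to 34.1 CPM.

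Most genes of the zinc exporter family carry zinc out of the cytosol. Of the 8 tested, 3 were also higher in numbers 3 and 4, and the rest were lower within each oligo group. Without overlap, 9.17% of all genes tested were higher and 9.27% lower. SLC30A1 (ZnT1), the plasma membrane exporter and textbook MTF1 target, had 50.7, 48.8, 76.5 and 71.2 CPM with ASO-Ctr, 46.4, 45.4, 69.9 and 72.4 with SO-L1, and 52.1, 50.4, 71.5 and 77.3 with ASO-L1. SLC30A2 (ZnT2), which loads zinc into vesicles, had between 0.642 and 1.18 CPM (median 0.868) in numbers 1 and 2 and between 2.84 and 4.89 (median 4.38) in numbers 3 and 4. SLC30A3, a vesicular exporter known from neurons, had between 3.59 and 5.20 and between 6.40 and 9.22 CPM. All 3 were higher without overlap, with log2 ratios of 0.58, 2.21 and 0.92, while SLC30A7 was lower without overlap at -0.17. SLC30A5, SLC30A6, SLC30A9 and SLC30A10 overlapped across groups but were lower in libraries 3 and 4 within each oligo group. Over the 8 exporters tested the median log2 ratio was -0.13.

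Of 11 zinc importers tested, SLC39A14 and SLC39A8 were higher in numbers 3 and 4 without overlap, at log2 ratios of 0.35 and 0.32, and 9 overlapped. MTF1 itself had 21.6, 21.1, 24.3 and 24.7 CPM with ASO-Ctr, 21.6, 23.0, 23.6 and 25.9 with SO-L1, and 23.9, 25.2, 28.5 and 26.8 with ASO-L1. It was higher in libraries 3 and 4 within each oligo group, with a mean log2 ratio of 0.17, and overlapped only across groups. The counts for the other lists stand beside 9.17% of all genes higher and 9.27% lower without overlap. Of 14 copper genes 1 was higher (SOD1) and 1 lower (SLC31A1, the copper importer). Of 13 heat shock genes 2 were higher (HSPA8 and DNAJA1) and 0 lower. HSP90AA1, HSPH1, DNAJB1 and BAG3 were higher in libraries 3 and 4 within each oligo group but overlapped across groups. Of 9 glucocorticoid-responsive genes 1 was higher (FKBP5) and 2 were lower (PER1 and KLF9). Of 19 NRF2 targets 0 were higher and 1 was lower. HMOX1, heme oxygenase, which NRF2 and metals induce, had 15.8, 16.5, 27.3 and 24.9 CPM with ASO-Ctr. It was higher in libraries 3 and 4 within each oligo group but overlapped across groups, because with ASO-L1 libraries 1 and 2 already stood at 31.1 and 30.0 CPM.

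Genes beside the cluster did not share the step as a group. Of 8 tested neighbours on 16q13, only NLRC5, a regulator of MHC class I genes, was higher without overlap. Its log2 ratio was 0.94, and 9.17% of all genes tested were higher in this way. NUP93, a nuclear pore gene, had a log2 ratio of 0.00, OGFOD1 one of -0.01 and BBS2 one of -0.53.

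**Figure D3:**
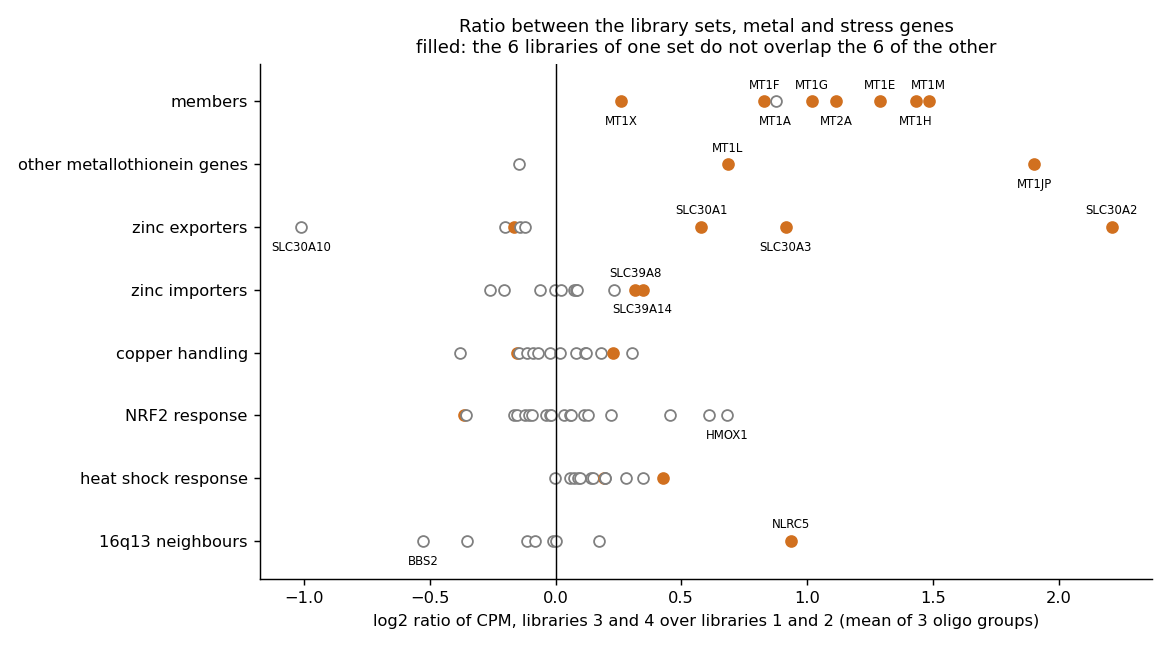
Log2 ratio of CPM between libraries 3 and 4 and libraries 1 and 2, as the mean of the 3 oligo groups (horizontal axis), for every tested gene of 8 lists (rows), 1 point per gene, filled where the 6 and 6 libraries do not overlap. Apart from MT1X at 0.26 the members lie between 0.83 and 1.48, with SLC30A2 at 2.21 and MT1JP at 1.90 to their right.

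Some markers of cell state and of other cell types also differed between the sets. The counts below stand beside 9.17% of all genes tested that were higher and 9.27% that were lower without overlap. Of 6 fibroblast and feeder markers tested, THY1, COL1A2, COL6A3 and POSTN were higher in numbers 3 and 4 without overlap, and the summed CPM of the 10 listed markers was 471 to 539 and then 590 to 647. Of the defining markers, DCN had 1 count, LUM 5, COL3A1 44 and PDGFRB 74 over all 12 libraries. Total counts overlapped, with 20367989 to 32180891 in numbers 1 and 2 and 23430960 to 29383229 in numbers 3 and 4. POU5F1, the defining factor of pluripotent cells, had between 916 and 1153 CPM in the 12 libraries. The summed CPM of 8 pluripotency markers overlapped at 7835 to 9244 and 7191 to 8544. Of these, 2 (TDGF1 and DPPA4) were lower in numbers 3 and 4 without overlap and 0 were higher. The summed CPM of the primed pluripotency markers was 529 to 575 and then 589.5 to 628, with 3 of 7 tested higher and 2 lower without overlap. THY1, at 46.4 to 65.4 CPM and then 83.8 to 102, stands in this list and in the fibroblast list and counts in both. The summed CPM of the naive markers overlapped at 497 to 561 and 539.7 to 601, with 1 of 9 tested (DPPA3) lower without overlap and 0 higher. The trophectoderm and amnion markers summed to 65.0 to 75.6 CPM and then 56.5 to 61.2, with 1 of 5 tested lower and 0 higher. That gene was TFAP2C, at 58.4 to 70.8 CPM and then 50.6 to 53.2, which made up most of the sum, and the list's median log2 ratio was 0.20. Of the primitive endoderm markers, 0 of 4 tested stood apart in either direction. The part of any of these differences in the metallothionein step was not tested, and a batch of cells, reagents or sequencing cannot be told apart from the library numbers.

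The deposited table that its name calls batch corrected no longer held the step. There the log2 values of the 8 genes differed between the sets by at most 0.039 (MT1A) and by as little as 0.0019 (MT1F), where log2 CPM from the counts differed by 0.26 (MT1X) to 1.47 (MT1M). The method of that correction and its batches are not given in the sources used here.

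**Figure D4:**
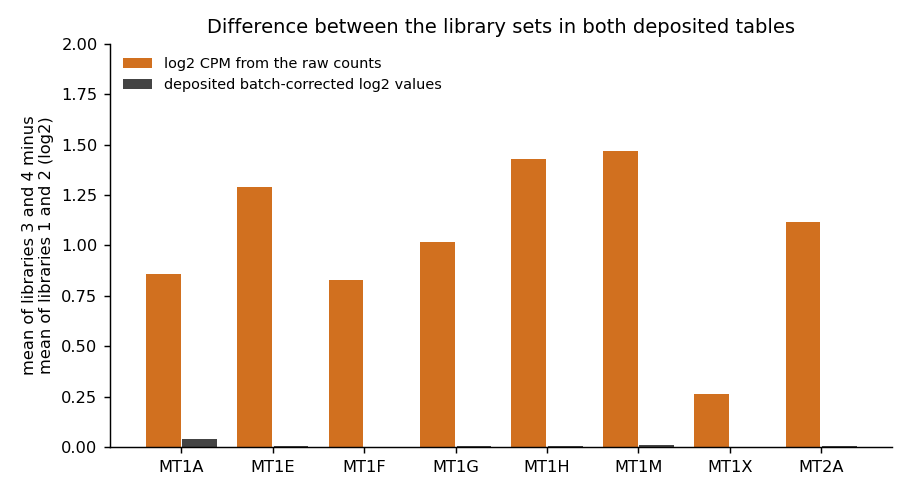
Mean log2 value of libraries 3 and 4 minus that of libraries 1 and 2 (vertical axis) for each metallothionein, from the raw counts (orange) and from the deposited batch-corrected table (dark). The orange bars run from 0.26 to 1.47 and the dark bars do not exceed 0.039.

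The pattern of the members over the 12 libraries was shared by genes outside the family. Among the 13250 genes tested with a mean log2 CPM above 1, the highest Pearson r of log2 CPM with MT1G was that of CCND1 (cyclin D1), at 0.99, followed by OLFM1, PTN, MFAP2 and DSEL. For MT1H these were DSEL at 0.99, TNFSF11, COL9A2, CXCL5 and PTN. For MT2A they were PTN at 0.99, OLFM1, MANF, KIF3B and DSEL, and for MT1X they were WDR34 at 0.98, RBM23, ZWINT, KIF3B and RPUSD1. Pairs of the 7 members other than MT1A had r from 0.904 to 0.996, which fell to a median of 0.37 once the mean of each oligo group and set was taken out. These are descriptions over 12 libraries that share the set step.

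Whether L1 antisense oligos changed metallothionein RNA was the comparison that did not enter the choice of genes. In the fit with a mean per oligo group, none of the 8 genes passed an adjusted p of 0.05 (edgeR quasi-likelihood test, Benjamini-Hochberg over all genes tested) for ASO-L1 against ASO-Ctr, and 0 did at an unadjusted p under 0.05. DESeq2 and limma-voom called 0 of the 8 as well. In that comparison 11.6% of all genes tested were called higher and 10.7% lower, 22.3% together. Log2 fold changes of the members ran from -0.30 (MT1A) to 0.016 (MT1X), with a median of -0.12 against -0.0010 over all genes, and the lowest adjusted p was 0.638. The SE of a member's log2 fold change was between 0.099 and 0.51 in this fit, where the set step counts as spread between the libraries of a group.

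With the library number as a block in the same edgeR fit, 4 of the 8 were lower with ASO-L1 than with ASO-Ctr and none was higher. In that fit 22.5% of all genes were called lower and 22.5% higher, 45.0% together. MT1F led, and its CPM was 31.3, 33.2, 60.3 and 58.9 in libraries 1 to 4 with ASO-Ctr and 27.9, 29.7, 48.0 and 51.6 with ASO-L1. It was lower with ASO-L1 in 4 of 4 pairs of the same number, and the log2 fold change was -0.22 ± 0.042 (SE; adjusted p = 5.89e-05, edgeR with the block). MT1H followed with -0.12 ± 0.046 (adjusted p = 0.0287, edgeR with the block, lower in 3 of 4 pairs).

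MT1G had -0.094 ± 0.034 (adjusted p = 0.0235, edgeR with the block, lower in 4 of 4 pairs) and MT1E had -0.10 ± 0.042 (adjusted p = 0.0469, edgeR with the block, lower in 3 of 4 pairs). All 4 differences were small beside the set step. MT1M at -0.16 ± 0.093, MT1A at -0.30 ± 0.24, MT2A at -0.022 ± 0.044 and MT1X at 0.017 ± 0.042 did not pass. MT1F passed without each of the 12 libraries in turn, with adjusted p up to 0.00186. The count of members called fell from 4 to 2 without ASO-Ctr 2, ASO-Ctr 3, ASO-Ctr 4 or ASO-L1 3, and to 2 with limma-voom or with no filter on low counts.

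Each set alone also gave a lower MT1F with ASO-L1. With libraries 1 and 2 only, its log2 fold change for ASO-L1 against ASO-Ctr was -0.17 (adjusted p = 0.0480, edgeR), and with libraries 3 and 4 only it was -0.26 (adjusted p = 2.79e-05, edgeR). MT1E, MT1G and MT1H were called lower with libraries 3 and 4 only, and not with libraries 1 and 2 only. Their log2 fold changes were -0.11, -0.10 and -0.18 with libraries 3 and 4, and -0.083, -0.085 and -0.033 with libraries 1 and 2. No member passed the interaction term described below, which compares the sets directly. Among all genes, 6045 were called with libraries 1 and 2 only and 6103 with libraries 3 and 4 only.

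ASO-L1 was also compared with the sense oligos. ASO-L1 against SO-L1 shares the ASO-L1 libraries with the comparison above, so the 2 sets of values are not independent. None of the 8 genes passed in the fit with a mean per oligo group, in which 10.7% of all genes tested were called higher and 9.64% lower (20.3% together), and 0 passed an unadjusted p of 0.05 or were called by DESeq2 or limma-voom. With the block, in which 21.7% of all genes were called lower and 21.6% higher (43.4% together), 3 of the 8 were lower and none higher. MT1H had a log2 fold change of -0.15 ± 0.046 (adjusted p = 0.00852, edgeR with the block), MT1F one of -0.12 ± 0.043 (adjusted p = 0.0223) and MT1G one of -0.090 ± 0.034 (adjusted p = 0.0329), each lower in 4 of 4 pairs. Without SO-L1 2 or without ASO-L1 3 that count fell to 1.

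The authors' deposited table for ASO-L1 against SO-L1 gave log2 fold changes from -0.17 (MT1H) to 0.11 (MT1A), below 0 for 7 of the 8 genes. The lowest adjusted p among the members in the authors' deposited table was 0.453, for MT1F.

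Between the 2 control oligos no member passed. For SO-L1 against ASO-Ctr the log2 fold changes ran from -0.39 (MT1A) to 0.053 (MT1X) in the fit with a mean per oligo group, where 0.00% of all genes tested were called higher and 0.0290% lower, and no member had an unadjusted p under 0.05 or was called by DESeq2 or limma-voom. With the block, in which 0.987% of all genes were called lower and 0.424% higher (1.41% together), the lowest adjusted p was 0.415, for MT1F at -0.099, and 1 member had an unadjusted p under 0.05.

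**Figure D5:**
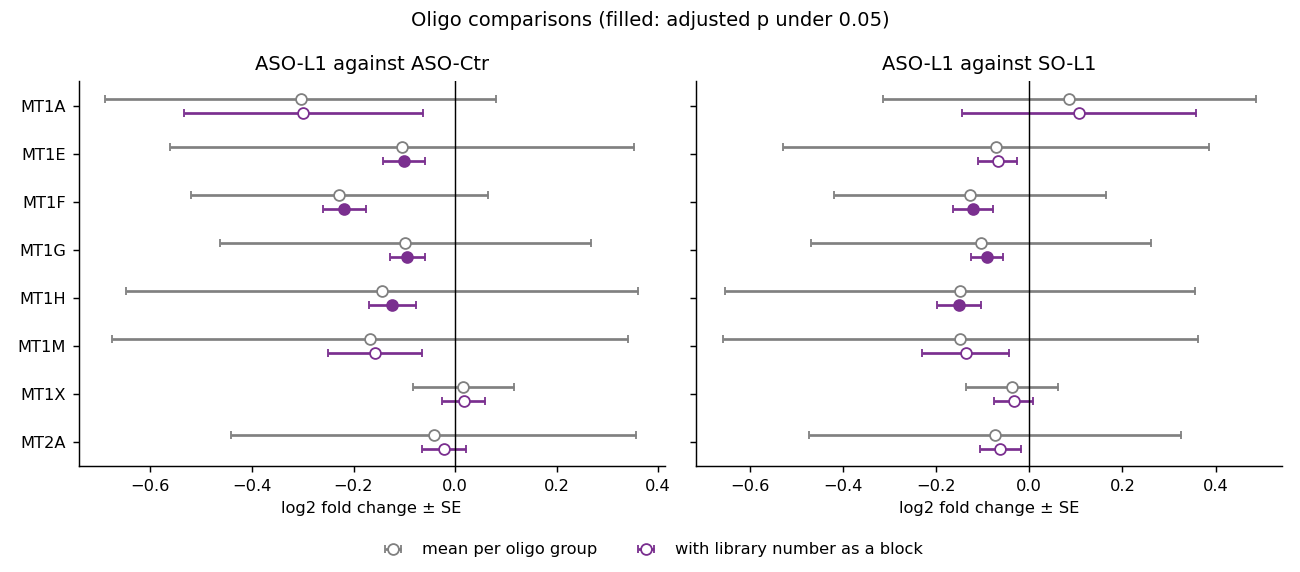
Log2 fold change (horizontal axis, points) with its SE (bars) of each metallothionein for ASO-L1 against ASO-Ctr (left) and ASO-L1 against SO-L1 (right), in the fit with a mean per oligo group (grey) and with the library number as a block (purple), filled where the adjusted p was under 0.05. Both fits give similar fold changes, and on the left each purple bar is shorter than the grey bar of the same gene. Only purple points are filled, 4 on the left and 3 on the right.

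The oligo differences were also compared between the library sets by an interaction term. No member passed in any of the 3 comparisons, against 0.778% of all genes for ASO-L1 against ASO-Ctr (0.331% higher and 0.447% lower), 1.76% for ASO-L1 against SO-L1 (0.546% and 1.21%) and 0.00% for SO-L1 against ASO-Ctr. The lowest adjusted p was 0.495, for MT2A at -0.17 ± 0.082 in ASO-L1 against ASO-Ctr (edgeR interaction). It was 0.494 for MT1X at -0.13 ± 0.078 in ASO-L1 against SO-L1 and 0.923 for MT1H at -0.24 ± 0.080 in SO-L1 against ASO-Ctr, both by the edgeR interaction. At an unadjusted p under 0.05 there were 1, 0 and 1 members in the 3 comparisons.

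Lists of other metal and stress genes were read in the same way for ASO-L1 against ASO-Ctr, in the fit with a mean per oligo group, where 22.3% of all genes tested were called (11.6% higher and 10.7% lower). Of 8 zinc exporters 2 fell, SLC30A9 (-0.19, adjusted p = 0.0185, edgeR) and SLC30A6 (-0.19, adjusted p = 0.0416, edgeR), and none rose. Leaving out each of the 12 libraries in turn kept the SLC30A9 call 9 times and the SLC30A6 call 6 times. SLC30A1, the MTF1 target described above, had a log2 fold change of 0.023 ± 0.20 and did not pass in this fit or with the block. Of 11 zinc importers 3 rose and 2 fell. SLC39A10, a plasma membrane importer, had 222.6, 229.8, 188.1 and 189.6 CPM with ASO-Ctr and 157.9, 150.2, 131.0 and 131.6 with ASO-L1, without overlap, and fell by 0.54 on the log2 scale (adjusted p = 0.00147, edgeR). SLC39A11 fell by 0.46 (adjusted p = 0.00175) and SLC39A6 rose by 0.29 (adjusted p = 0.00223), both on the log2 scale in edgeR.

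Of the 5 genes of metal-responsive regulation none passed, CTCF (-0.039) and SP1 (0.018) being the most abundant. With the block, where 22.5% of all genes were called higher, 2 of the 5 rose, USF1 by 0.26 ± 0.042 on the log2 scale (adjusted p = 3.83e-06, edgeR) and MTF1 by 0.19 ± 0.051 (adjusted p = 0.00226, edgeR). Of 14 copper genes 2 rose and 2 fell. COMMD1, which takes part in copper export, fell by 0.75 (adjusted p = 2.49e-05), CCS, the copper chaperone of SOD1, fell by 0.23 (adjusted p = 0.00826), and COX19, of cytochrome oxidase assembly, rose by 0.38 (adjusted p = 0.00434), all log2 in edgeR. Of 9 iron genes 4 rose and 1 fell, with FTL, ferritin light chain, at 0.54, NCOA4, the ferritin receptor of autophagy, at 0.32 and the metal transporter SLC11A2 at -0.41.

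Genes that respond to known inducers of metallothioneins were counted beside the same shares of all genes, 11.6% higher and 10.7% lower. Of 9 glucocorticoid-responsive genes 5 rose and none fell, with DUSP1 at 1.67, TSC22D3 at 1.28 and CEBPD at 0.88 on the log2 scale. The rest of that list did not pass, among them FKBP5 and PER1, which differed between the library sets as given above. FKBP5 had 54.8, 61.7, 73.6 and 74.5 CPM with ASO-Ctr and 56.1, 56.5, 69.0 and 71.7 with ASO-L1. PER1 had 37.0, 38.7, 25.2 and 25.4 CPM with ASO-Ctr and 35.8, 36.4, 29.1 and 28.5 with ASO-L1. Of 13 heat shock genes 7 rose and none fell, led by HSPB1 at 0.73 with HSPA1A at 0.61 and HSPA1B at 0.47, a near-identical pair whose reads can be split between them and whose difference also varied between the library sets. Of 19 NRF2 targets 5 rose and 1 fell, with OSGIN1 at 1.78, NFE2L2, the gene of NRF2, at 0.31 and ME1 at -0.86, and the other 13 did not pass. In the same fit, where the set step counts as spread, none of the 8 metallothioneins was called in either direction. Whether these inducers acted on them was not tested. On 16q13, HERPUD1, a stress gene of the endoplasmic reticulum, rose by 0.84, and NUP93 (-0.31) and BBS2 (-0.69) fell. Leaving out each of the 12 libraries in turn kept the BBS2 call 8 times. The medians of these lists were 0.46, 0.26, 0.0052 and -0.019, against -0.0010 over all genes tested.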

How the data were processed

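The values deposited by the authors are raw counts per gene symbol, all whole numbers, and log2 values in a file named as normalised and corrected for batch. The name of the count table carries a tag for removed duplicates, which no source used here explains. The authors' deposited comparison of ASO-L1 with SO-L1 holds log2 fold changes with raw and adjusted p-values, beside deposited t and B scores that were not used. Build hg19 is given by the submitters' processing notes. They list as tools featureCounts (Subread 1.5.0), TopHat2 (2.0.13) and Trim Galore (0.4.0). The library kit was stranded and poly(A)-selected, per the labels' protocols. Promoters come from RefSeq on GRCh38.p14, with an entry for 3 of the 8 members, and transcripts from GENCODE v29.

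The counts were tested with edgeR 4.0.16 under R 4.3.3 (TMM, filterByExpr with a least count of 10 and a least total of 15, robust quasi-likelihood F test, two-sided, 17228 genes). CPM use effective library sizes, and log2 CPM a prior count of 2. A row without a gene name, with 10 counts over all libraries, was left out. Fold changes are called at a Benjamini-Hochberg adjusted p under 0.05. At 3 counts per library the floor is 0.0942 to 0.148 CPM, for counting error only.

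The main design has a mean per oligo group. Alternatives were the library number or set as a block, DESeq2 1.42.0, limma-voom (limma 3.58.1), other scalings, no filter and fewer libraries, and those run within the block fit were added after seeing the data. Numbers come from the labels and nothing says what they share. With group means taken out, libraries of the same number correlated across genes at 0.45 to 0.56, those of the other number of the same set at 0.45 to 0.54 and those of the other set at -0.53 to -0.43, so the block is used beside the main fit. The scripts were tested on simulated counts. No libraries held identical counts.

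The genes, the gene lists, the motifs and the tests were chosen with earlier results of these data known. Named genes are all members, the other family symbols, up to 3 genes per list past the threshold in ASO-L1 against ASO-Ctr (or the 2 most abundant), and the 5 genes most alike to each of 4 members. Genes named for their set ratio were named after their values were seen, as was USF1. Among metal genes these were the tested zinc exporters, SLC39A14, SLC39A8, MTF1, SOD1 and SLC31A1. Among stress and hormone response genes they were HMOX1, HSPA8, DNAJA1, HSP90AA1, HSPH1, DNAJB1, BAG3, FKBP5, PER1 and KLF9. The rest were NLRC5, OGFOD1, TFAP2C, TDGF1, DPPA4, DPPA3 and the fibroblast markers.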

Additional observations from a re-analysis of the deposited data

Results flagged for a closer look

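MT1A stood out in SO-L1, where library 1, at 0.297 CPM, lay far below the other 3 libraries, which were between 0.848 and 0.948. This rests on 6 counts. Library 4 of ASO-Ctr was low for MTL5, at 29.3 CPM against 33.1 to 33.9 in the other 3, and library 2 of ASO-Ctr was high for SLC39A6, at 45.8 CPM against 41.8 to 42.1. In all, 3 of the 187 groups of 4 or 6 libraries looked at had such a library. Chance flags about 1 in 20 groups where no set step is present. Each group of 4 joined both library sets, which can hide such a library, so that rate does not apply here.

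The difference of ASO-L1 from a control differed between the library sets for 5 genes named by the rule and for no metallothionein, by the edgeR interaction term. For ASO-L1 against ASO-Ctr, numbers 3 and 4 minus numbers 1 and 2, the log2 difference was 0.42 for HSPA1A (adjusted p = 0.0234, edgeR), 0.38 for HSPA1B (adjusted p = 0.0255, edgeR), -0.41 for TFCP2L1 (adjusted p = 0.0165, edgeR) and -0.28 for COL1A1 (adjusted p = 0.0191, edgeR). For ASO-L1 against SO-L1 it was 0.39 for HSPA1A (adjusted p = 0.0271, edgeR), 0.49 for HSPA1B (adjusted p = 0.000823, edgeR), 0.53 for KLF5 (adjusted p = 0.0261, edgeR) and -0.40 for COL1A1 (adjusted p = 0.000135, edgeR). HSPA1A and HSPA1B are stress-induced chaperones and near-identical copies. TFCP2L1 and KLF5 are pluripotency factors, and COL1A1 is a collagen gene.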

How the results depend on the processing

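In the step between library sets, 7 members did not overlap with TMM, DESeq2 size factors or total counts alone, and 7 or 8 without each library in turn, and no log2 ratio moved by more than the spread between replicates. The oligo comparisons depended on the replicate block. Members called for ASO-L1 against ASO-Ctr were 0 with a mean per group, 4 with the block, 4 with the set as a term, 1 with numbers 1 and 2 only and 4 with numbers 3 and 4 only, and for ASO-L1 against SO-L1 they were 0, 3, 3, 1 and 1. Genes called in all for these settings were 7747, 7822, 6045 and 6103 against 3847 with a mean per group for ASO-L1 against ASO-Ctr, and 7469, 7517, 5863 and 5861 against 3497 for ASO-L1 against SO-L1. For SO-L1 against ASO-Ctr they were 243, 246, 124 and 201 against 5, and 8 with total counts alone, 8 with no filter and 52 with the DESeq2 Wald test. The cause of these changes was not tested. Within the block fit, the members called for ASO-L1 against ASO-Ctr were 2 with no filter and 2 with limma-voom, and without each library in turn 2 to 4, while for ASO-L1 against SO-L1 they were 1 to 4.

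Reversed directions concerned differences that did not pass with a mean per group, and the cause was not tested. For SO-L1 against ASO-Ctr, MT1G was -0.0047 with the replicate block, -0.0064 with the set as a term and -0.048 with numbers 1 and 2 only. MT1H was -0.0021 with the DESeq2 Wald test and -0.074 with numbers 3 and 4 only, MT1M 0.093 with limma-voom and 0.20 with numbers 1 and 2 only, MT2A -0.019 with numbers 3 and 4 only, and MT1E 0.0019 and MT1X -0.018 with numbers 1 and 2 only. With numbers 1 and 2 only, MT2A was 0.075 for ASO-L1 against ASO-Ctr, and for ASO-L1 against SO-L1 MT1A was -0.20 and MT1X 0.034.

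Leaving out 1 library without the block unbalances the sets, and log2 fold changes then crossed 0. Their ranges for ASO-L1 against ASO-Ctr were MT1E -0.34 to 0.13, MT1G -0.29 to 0.077, MT1H -0.41 to 0.12, MT1M -0.46 to 0.13, MT1X -0.028 to 0.064, MT2A -0.24 to 0.16, MT1L -0.40 to 0.011, SP1 -0.024 to 0.049. For ASO-L1 against SO-L1 they were MT1A -0.15 to 0.29, MT1E -0.31 to 0.15, MT1F -0.29 to 0.021, MT1G -0.29 to 0.085, MT1H -0.41 to 0.10, MT1M -0.44 to 0.076, MT1X -0.10 to 0.028, MT2A -0.27 to 0.13. For SO-L1 against ASO-Ctr they were MT1E -0.26 to 0.20, MT1F -0.25 to 0.056, MT1G -0.18 to 0.18, MT1H -0.24 to 0.27, MT1M -0.26 to 0.27, MT1X -0.013 to 0.11, MT2A -0.18 to 0.23. With the block, the ranges that crossed 0 were MT1X -0.0085 to 0.029, MT2A -0.075 to 0.017 for ASO-L1 against ASO-Ctr and MT1A -0.017 to 0.37 for ASO-L1 against SO-L1. Genes called by the interaction ranged from 74 to 253, from 100 to 549 and from 0 to 32 in the 3 comparisons, and no member was called.

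Depth limits MT1A, MT1L and MT1JP, with 264, 458 and 333 counts in all, and windows shared with other genes, exactly or with up to 2 mismatches, limit all 8 members, MT1H, MT1G, MT1E, MT1A and MT1X by the largest shares.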
